A study of Homo sapiens with 4 samples.

Results

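IFI27, IFI27L1, IFI27L2, IFI6, IFI44, IFI44L, IFI35, IFI16 and XAF1 are 9 genes grouped around the interferon response, all but XAF1 with IFI symbols. They were taken by symbol from 24424 gene symbols, and all 9 were found in every library. They were chosen by their CPM (counts scaled to 1000000 per library) in these same libraries, so the values given for them are descriptions and none is tested. RNA was sequenced from BEAS-2B, an established cell line from human bronchial epithelium whose genotype is labelled wild type in every group, with 1 library in each of 4 groups. The siOCLN+LPS cells were transfected for 24 h with siRNA against occludin, a tight junction protein encoded by OCLN, and then given LPS for 2 h. The wtOCLN+LPS cells received wild-type occludin by transfection for 24 h, with LPS then added for 2 h. The LPS cells received LPS (bacterial lipopolysaccharide, the ligand of TLR4) for 2 h, and the control cells received no treatment. The labels of the LPS and control groups mention no transfection and no mock transfection, so transfection itself cannot be told apart from what was transfected.

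Interferons bind receptors whose kinases activate transcription factors that join IRF9 in a complex named ISGF3. ISGF3 binds the interferon-stimulated response element, a DNA element built from repeats of GAAA, near the start of its target genes. In airway epithelium these targets form the first antiviral programme. IFI27, IFI6, IFI27L1 and IFI27L2 belong to the ISG12 family of small hydrophobic membrane proteins. IFI44 and IFI44L are a related pair on chromosome 1. IFI35 pairs with NMI, IFI16 is a nuclear and cytosolic DNA sensor, and XAF1 binds and antagonises the apoptosis inhibitor XIAP.

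Sequences around the starts of these genes are shown because the members differ in the elements found there. Whether these elements bear on the levels of the genes was not tested. They come from RefSeq promoters on GRCh38.p14, each running 5′ to 3′ on the strand of its gene. Each is named by the gene, and capitals mark matches to GAAANNGAAA or to GAAANGAAA on either strand. The genes of the ISG12 family come first, each from 180 bases before the start to the base before it.
IFI27: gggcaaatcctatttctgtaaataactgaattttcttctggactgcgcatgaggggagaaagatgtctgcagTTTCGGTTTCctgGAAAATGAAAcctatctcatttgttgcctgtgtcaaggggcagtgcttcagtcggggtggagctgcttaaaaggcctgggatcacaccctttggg
IFI6: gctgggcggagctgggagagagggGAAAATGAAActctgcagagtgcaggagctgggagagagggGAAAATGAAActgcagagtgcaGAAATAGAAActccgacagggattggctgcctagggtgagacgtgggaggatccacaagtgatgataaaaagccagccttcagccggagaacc
IFI27L1: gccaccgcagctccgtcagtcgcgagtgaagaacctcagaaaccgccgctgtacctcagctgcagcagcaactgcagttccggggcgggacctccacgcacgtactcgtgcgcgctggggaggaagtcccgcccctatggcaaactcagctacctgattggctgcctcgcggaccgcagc
IFI27L2: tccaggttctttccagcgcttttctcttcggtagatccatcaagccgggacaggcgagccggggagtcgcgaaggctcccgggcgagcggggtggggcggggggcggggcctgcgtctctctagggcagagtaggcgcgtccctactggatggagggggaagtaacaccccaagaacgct
These 4 stretches lie at chr14:94110556-94110735 (plus strand) for IFI27, chr1:27672193-27672372 (minus strand) for IFI6, chr14:94081130-94081309 (plus strand) for IFI27L1 and chr14:94129605-94129784 (minus strand) for IFI27L2. IFI27 lies between IFI27L1 and IFI27L2 in the gene order of GENCODE 29.

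The other 5 genes are shown over the shorter stretch that holds their matches, except IFI44L, which has 2 far apart. The XAF1 stretch runs from 60 bases before the start to 10 bases after it, and its match spans the start. The IFI16 stretch comes from the 1 of its 2 RefSeq promoters that holds a match.
IFI44L: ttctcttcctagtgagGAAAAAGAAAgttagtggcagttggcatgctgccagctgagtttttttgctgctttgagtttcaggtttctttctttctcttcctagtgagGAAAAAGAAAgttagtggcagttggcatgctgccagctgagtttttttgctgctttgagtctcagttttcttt
IFI44: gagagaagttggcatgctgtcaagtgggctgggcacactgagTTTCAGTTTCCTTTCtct
XAF1: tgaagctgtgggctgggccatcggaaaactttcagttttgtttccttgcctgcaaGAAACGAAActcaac
IFI35: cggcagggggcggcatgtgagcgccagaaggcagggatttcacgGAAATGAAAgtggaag
IFI16: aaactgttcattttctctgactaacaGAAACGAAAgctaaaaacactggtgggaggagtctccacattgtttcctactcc
These stretches lie on the plus strand, at chr1:78620268-78620447 for IFI44L, chr1:78649729-78649788 for IFI44, chr17:6755986-6756055 for XAF1, chr17:43006724-43006783 for IFI35 and chr1:159009827-159009906 for IFI16.

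The motifs were searched on both strands from 250 bases before to 50 bases after each RefSeq start. GAAANNGAAA (TTTCNNTTTC on the other strand) is the core of the interferon-stimulated response element, and GAAANGAAA (TTTCNTTTC) has 1 base fewer between the repeats. IFI6 held 3 matches to GAAANNGAAA, IFI27 and IFI44L held 2 each, and IFI44 held 1 that overlaps a match to GAAANGAAA. XAF1, IFI35 and IFI16 held 1 match to GAAANGAAA, for XAF1 and IFI16 in 1 of their 2 RefSeq promoters. IFI27L1 and IFI27L2 held neither motif in this window. Thus 7 of the 9 genes (77.8%) had at least 1 of the motifs, against 2139 of 27305 genes with a RefSeq promoter (7.83%). Of 55 other interferon-stimulated genes listed, only 44 had a promoter in the set searched, and 35 of these 44 (79.5%) had at least 1 of the motifs. GAAANNGAAA alone was present in 3.57% and GAAANGAAA in 3.12% of all 35116 promoters. The palindrome TTCNNNGAA, the core of the gamma-activated element, occurred in IFI27, where it overlaps both matches, and in IFI35, and in 7.66% of all promoters. A match is a run of letters and not a measured binding site.

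**Figure D1:**
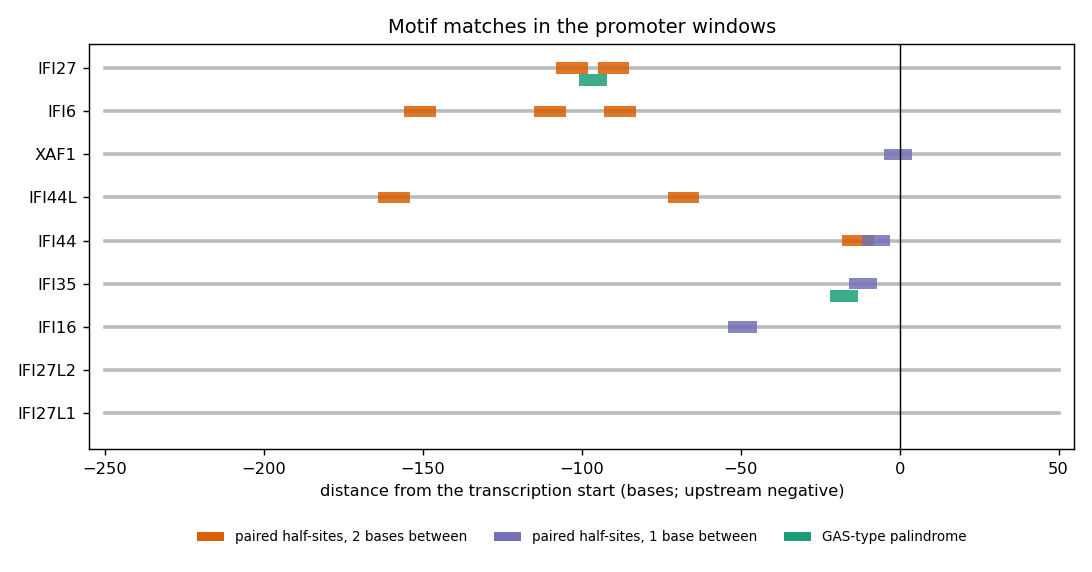
Positions of motif matches in the promoter window of each of the 9 genes, with distance from the transcription start in bases on the x axis (1 promoter per gene). IFI27 and IFI6 carry 2 and 3 matches to GAAANNGAAA more than 80 bases upstream, and the windows of IFI27L2 and IFI27L1 are empty.

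The libraries held 17476333 counts for siOCLN+LPS, 17500031 for wtOCLN+LPS, 13867494 for LPS and 15889736 for control, so that 1 count was worth 0.0571 to 0.0721 CPM. OCLN stood at 21.0 CPM in siOCLN+LPS, 29.7 CPM in wtOCLN+LPS, 50.4 CPM in LPS and 55.4 CPM in control. The wtOCLN+LPS value goes against its label, so it is called the library labelled wtOCLN+LPS and nothing drawn from it is read as an effect of added occludin. OCLN was below LPS in both transfected libraries, at 0.417 of it in siOCLN+LPS (0.366 to 0.473) and 0.588 (0.524 to 0.660) in wtOCLN+LPS. Whether the transfected libraries were exchanged was not tested, and an exchange would also change what each siOCLN+LPS value stands for. The comparison of LPS with control uses neither of them. All 10 bronchial epithelial markers had counts in every library, with a summed level of 2030 to 3774 CPM, although EPCAM stood at only 1.26 to 2.67 CPM and the basal keratin KRT14 at 0.458 to 1.07 CPM. That list was not level across libraries: its sum was 3566 CPM in siOCLN+LPS, 3774 CPM in wtOCLN+LPS, 2030 CPM in LPS and 2307 CPM in control. In siOCLN+LPS, 5 of 9 tested markers passed 2-fold over LPS, against 3.32% of all genes tested. Of 12 leukocyte markers, 2 (CD14 and CD68) reached 1 CPM in any library, the T cell, B cell and macrophage markers CD3E, MS4A1 and CD163 were at 0 counts in all, and the summed level was 25.8 CPM in siOCLN+LPS, 30.9 CPM in wtOCLN+LPS, 23.7 CPM in LPS and 26.1 CPM in control. CD14, an LPS co-receptor, was at 20.6 CPM in siOCLN+LPS, 22.7 CPM in wtOCLN+LPS, 5.99 CPM in LPS and 8.37 CPM in control. CD68, a lysosomal protein of macrophages, went the other way, at 4.98 CPM in siOCLN+LPS, 7.49 CPM in wtOCLN+LPS and 16.6 CPM in both LPS and control, so the near-level sum joins 1 marker called higher and 1 called lower against LPS. Summed fibroblast markers ran from 116 to 139.8 CPM, from COL1A1 and THY1, and endothelial markers from 1.72 to 2.45 CPM. The part of these markers in the results was not tested.

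The 9 genes together took 769 CPM in siOCLN+LPS, with 1823 CPM in the library labelled wtOCLN+LPS, against 155 CPM in LPS and 175 CPM in control. Their make-up differed as well. IFI6 held 38.9% of these counts in siOCLN+LPS, with 38.7% in the library labelled wtOCLN+LPS, against 17.7% in LPS and 15.7% in control. IFI27 held 15.7% and 21.4% in those transfected libraries, against 2.04% in LPS and 2.85% in control. IFI16 was the largest contributor in the LPS and control libraries, at 38.9% and 37.1%. In bulk RNA, more cells expressing a gene and more RNA per cell cannot be told apart.

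IFI27, a small membrane protein of mitochondria and the nuclear envelope, was at 121 CPM in siOCLN+LPS (95% Poisson interval 116 to 126), 389 CPM in the library labelled wtOCLN+LPS (interval 380.1 to 399), 3.17 CPM in LPS (2.31 to 4.26) and 4.97 CPM in control (3.94 to 6.20). These rest on 2114 counts in siOCLN+LPS, 6813 in the library labelled wtOCLN+LPS, 44 in LPS and 79 in control. IFI27 was high in both transfected libraries and low in the others, though well above what 3 counts are worth there (0.216 CPM in LPS and 0.189 CPM in control). IFI6, an antiviral protein of the endoplasmic reticulum that also limits apoptosis, was at 299 CPM in siOCLN+LPS, 705 CPM in the library labelled wtOCLN+LPS, 27.5 CPM in LPS and 27.3 CPM in control. Its LPS and control levels lie within counting error of each other.

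Their paralogues showed a much flatter pattern. IFI27L2 was at 20.6 CPM in siOCLN+LPS (18.5 to 22.8), 18.1 CPM in the library labelled wtOCLN+LPS (interval 16.1 to 20.2), 11.8 CPM in LPS and 13.2 CPM in control (11.4 to 15.1). Both transfected libraries were above LPS and control. IFI27L1 was at 6.64 CPM in siOCLN+LPS, 5.60 CPM in the library labelled wtOCLN+LPS, 5.41 CPM in LPS and 6.10 CPM in control, on 75 to 116 counts, and all 4 intervals overlapped. The interval of its ratio to LPS ended at 1.66 in siOCLN+LPS.

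IFI44L, which restrains the interferon response, was at 111 CPM in siOCLN+LPS (107 to 116), 259.8 CPM in the library labelled wtOCLN+LPS (interval 252 to 267), 16.8 CPM in LPS (14.7 to 19.1) and 20.0 CPM in control (17.9 to 22.3). IFI44, its neighbour, was at 46.9 CPM in siOCLN+LPS (43.8 to 50.2), 96.5 CPM in the library labelled wtOCLN+LPS (interval 91.9 to 101), 9.88 CPM in LPS (8.29 to 11.7) and 10.3 CPM in control (8.74 to 12.0). The pair had the same order of libraries, with the transfected ones apart from each other and from the rest, and LPS and control with overlapping intervals.

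XAF1 was at 51.4 CPM in siOCLN+LPS (48.1 to 54.9), 171 CPM in the library labelled wtOCLN+LPS (interval 165 to 178), 7.64 CPM in LPS (6.26 to 9.24) and 11.9 CPM in control (10.3 to 13.7). It is a gene for which LPS lay below control with no overlap of the intervals. IFI35, an interferon-induced leucine zipper protein, was at 38.2 CPM in siOCLN+LPS, 69.1 CPM in the library labelled wtOCLN+LPS, 12.9 CPM in LPS and 16.0 CPM in control. IFI16 was at 73.2 CPM in siOCLN+LPS (69.3 to 77.4), 108 CPM in the library labelled wtOCLN+LPS (interval 103 to 113), 60.4 CPM in LPS (56.4 to 64.7) and 64.8 CPM in control (60.9 to 68.9). IFI16 had the highest CPM of the 9 in the LPS and control libraries and one of the flattest profiles.

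**Figure D2:**
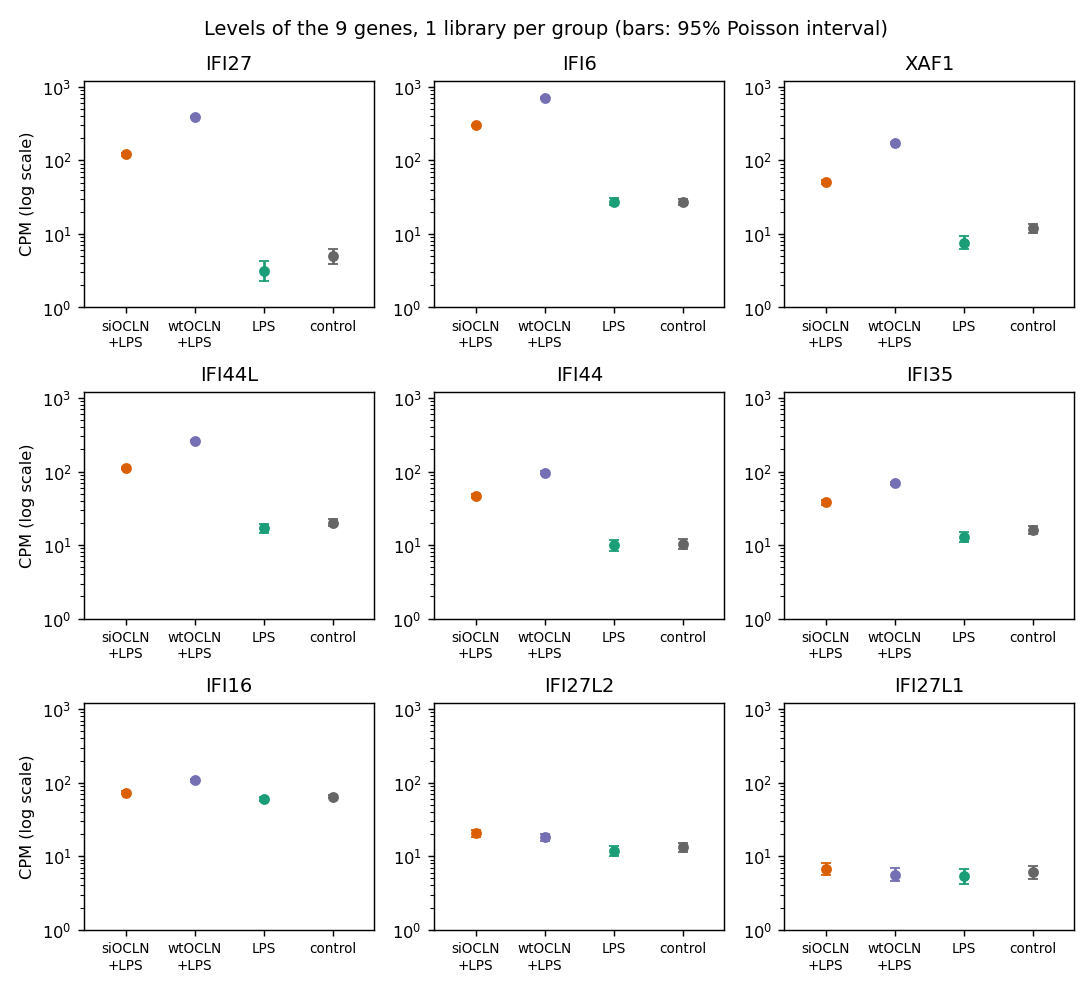
CPM of each of the 9 genes (log axis) in the libraries labelled siOCLN+LPS, wtOCLN+LPS, LPS and control, with 1 point per library and bars for the 95% Poisson interval of its count. IFI27 lies at 121 and 389 CPM in the transfected libraries and at 3.17 and 4.97 CPM in LPS and control, while IFI27L1 stays between 5.41 and 6.64 CPM.

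Levels of different genes were compared per kilobase of the longest protein-coding GENCODE 29 transcript, from 556 bases for IFI27L2 to 5874 bases for IFI44L. Which transcripts these cells made was not determined, so the order holds for these lengths only. The intervals cover counting error and not the choice of transcript. In siOCLN+LPS, IFI6 led at 356 CPM per kb, followed by IFI27 at 167 CPM per kb and IFI27L2 at 37.0 CPM per kb. IFI35 (30.8 CPM per kb), IFI44 (27.8) and IFI16 (25.5) followed with each interval overlapping that of the next gene, and then came IFI44L (19.0), XAF1 (14.2) and IFI27L1 (8.26). In the library labelled wtOCLN+LPS, IFI6 was at 839 CPM per kb and IFI27 at 537 CPM per kb, ahead of IFI44 (57.2) and IFI35 (55.7), whose intervals overlap. XAF1 (47.3), IFI44L (44.2), IFI16 (37.7), IFI27L2 (32.5) and IFI27L1 (6.97) followed, with IFI16 and IFI27L2 overlapping.

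The order was different in the cells with no transfection in their labels. In LPS, IFI6 was at 32.7 CPM per kb, IFI27L2 and IFI16 both at 21.1, IFI35 at 10.4, IFI27L1 at 6.73, IFI44 at 5.86, IFI27 at 4.38, IFI44L at 2.86 and XAF1 at 2.11. In control, IFI6 was at 32.5 CPM per kb, IFI27L2 at 23.7, IFI16 at 22.6, IFI35 at 12.9, IFI27L1 at 7.59, IFI27 at 6.86, IFI44 at 6.08, IFI44L at 3.41 and XAF1 at 3.28. IFI27 thus stood second per length in both transfected libraries, seventh in LPS and sixth in control. From IFI27L1 to XAF1 in LPS, each gene's interval overlapped that of the next, and in control the same held from IFI27L1 to IFI44 and for IFI44L and XAF1.

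In siOCLN+LPS against LPS, which by its label addresses occludin siRNA in LPS-treated cells, 6 of the 9 genes reached 2-fold above LPS, none reached 2-fold below it, and 3 lay between. Calls use the log2(CPM + 1) ratio where at least 1 of the libraries reached 1 CPM, while folds are ratios of CPM with exact 95% intervals for counting error. Over all 13505 tested genes, the shares past 2-fold were 3.32% upward and 3.92% downward. The genes past 2-fold were IFI27 at 38.1-fold (28.3 to 52.6), IFI6 at 10.9-fold (9.81 to 12.1), XAF1 at 6.72-fold (5.49 to 8.30), IFI44L at 6.63-fold (5.79 to 7.63), IFI44 at 4.75-fold (3.96 to 5.73) and IFI35 at 2.96-fold (2.51 to 3.51). IFI27 had the highest log2 ratio of all genes tested, at 4.87, and IFI6 ranked seventh. IFI27L2 was at 1.75-fold (1.45 to 2.12) and IFI16 at 1.21-fold (1.11 to 1.32), both above 1 by more than counting error, whereas IFI27L1 at 1.23-fold (0.910 to 1.66) was not, although with TMM scaling it came to 1.36-fold (1.01 to 1.84). The median log2 ratio was 2.14 over the 9 genes and -0.13 over all genes tested. Because the members were picked with this contrast known, their count is not evidence about the group. The upward share among all genes past 2-fold was 45.9% by library totals, but 60.8% by median ratio and 61.5% by TMM scaling.

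In the library labelled wtOCLN+LPS against LPS, 6 of the 9 genes passed 2-fold upward and none downward, where 3.32% of 13493 genes tested were higher and 3.69% lower. IFI27 was at 123-fold (91.3 to 169), IFI6 at 25.7-fold (23.2 to 28.5), XAF1 at 22.4-fold (18.5 to 27.5), IFI44L at 15.5-fold (13.6 to 17.7), IFI44 at 9.76-fold (8.20 to 11.7) and IFI35 at 5.35-fold (4.57 to 6.30). IFI27 again had the highest log2 ratio of all genes tested, at 6.55. IFI16 was at 1.79-fold (1.65 to 1.94), IFI27L2 at 1.54-fold (1.27 to 1.87) and IFI27L1 at 1.04-fold (0.759 to 1.42). The median log2 ratio was 3.16 over the 9 genes and -0.15 over all genes tested. IFI16 came to 2.00-fold with median ratio and 2.01-fold with TMM scaling, and its log2(CPM + 1) ratio stayed under 1 at 0.99 with both. The upward share was 47.4% by library totals, 64.7% by median ratio and 64.9% by TMM scaling. This comparison shares its LPS library with the one before, so the values stand side by side and are not independent.

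**Figure D3:**
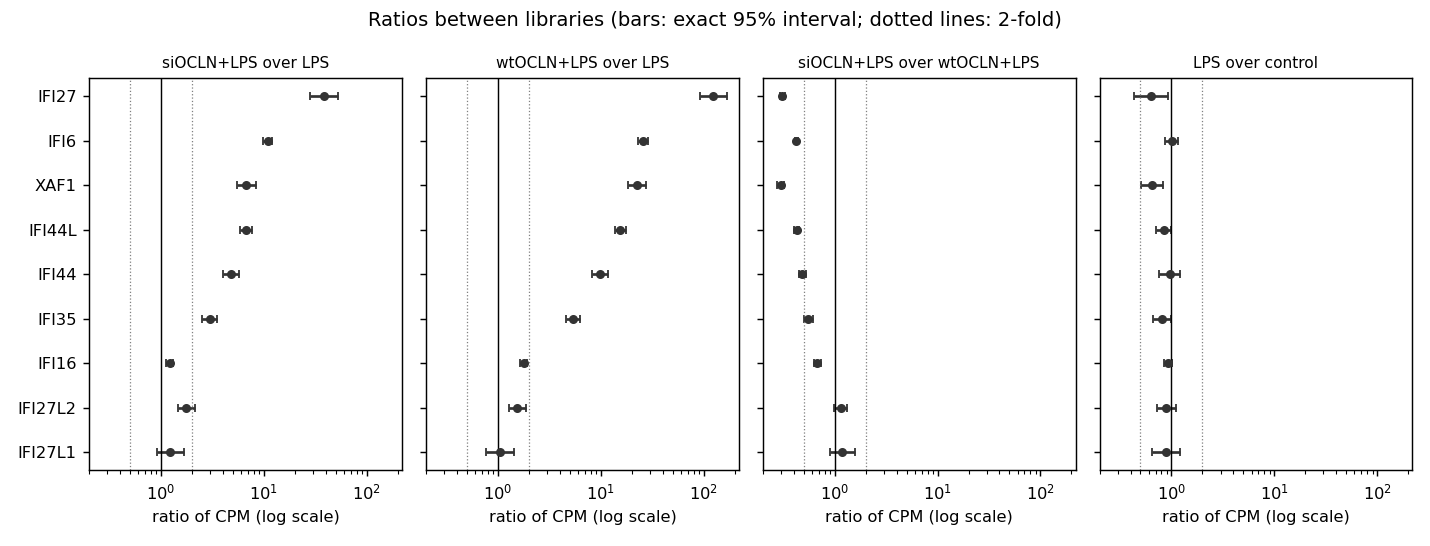
Ratio of CPM (log axis) for each of the 9 genes in 4 comparisons, with bars for exact 95% intervals, a line at 1 and dotted lines at 2-fold. IFI27 lies farthest right against LPS, at 38.1 and 123, and the ratios of LPS over control lie between 0.638 and 1.01.

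**Figure D4:**
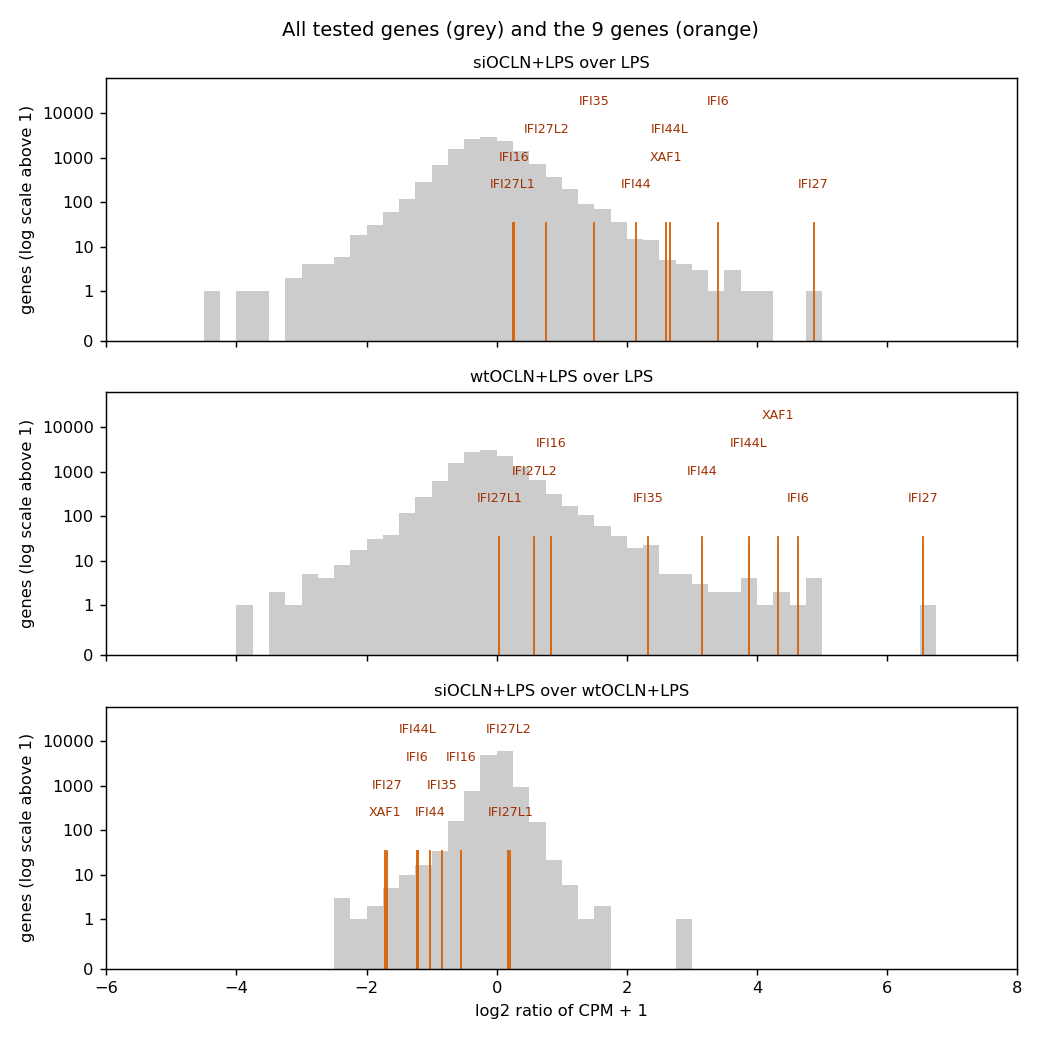
Number of tested genes (log axis above 1) by log2 ratio of CPM + 1 in 3 comparisons, with orange lines at the 9 genes. IFI27 is the highest gene in both comparisons with LPS, at log2 ratios of 4.87 and 6.55. IFI27L1 lies lowest of the 9 there, at 0.25 and 0.04, where the medians of all genes tested are -0.13 and -0.15.

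Set directly against the library labelled wtOCLN+LPS, siOCLN+LPS gives a comparison that uses neither LPS nor control, and both libraries were transfected, although with different material. Of the 9 genes, 5 were at least 2-fold lower in siOCLN+LPS, none passed 2-fold upward and 4 lay between, where 0.290% of 13109 genes tested were lower and 0.0763% higher. XAF1 was at 0.300 of its level in the library labelled wtOCLN+LPS (0.278 to 0.323) and IFI27 at 0.311 (0.296 to 0.326), with overlapping intervals. IFI6 at 0.424 (0.411 to 0.438) and IFI44L at 0.429 (0.406 to 0.452) also overlapped, and IFI44 was at 0.486 (0.447 to 0.529). IFI35 at 0.553 (0.503 to 0.609) and IFI16 at 0.679 (0.632 to 0.729) were lower by less than 2-fold. IFI27L2 was at 1.14 (0.978 to 1.33) and IFI27L1 at 1.19 (0.898 to 1.57), both within counting error of 1.

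The members therefore differed from each other in how far the transfected libraries lay apart. XAF1 and IFI27 ranked seventh and eighth from the lowest log2 ratio of all genes tested, at -1.72 and -1.68. The difference did not follow the level per length, since IFI6 was above IFI27 and XAF1 below it. OCLN itself was at 0.708 of its level in the library labelled wtOCLN+LPS (0.618 to 0.811). With 1 library each, the spread between cultures is unknown for all of these values.

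LPS against control addresses the response to 2 h of LPS in cells with no transfection in their labels, and all 9 genes lay within 2-fold there. Over all 13551 tested genes, 1.60% passed 2-fold upward and 0.207% downward. IFI27 was at 0.638 of control (0.431 to 0.934) and XAF1 at 0.643 (0.502 to 0.819). IFI35 at 0.807 (0.663 to 0.982) and IFI44L at 0.840 (0.706 to 0.997) were also below 1 by more than counting error. With TMM scaling IFI27 came to 0.681 (0.460 to 0.997) and XAF1 to 0.686 (0.535 to 0.874), while IFI35 (0.708 to 1.05) and IFI44L (0.753 to 1.06) no longer excluded 1. The other 5 genes ran from 0.886 for IFI27L1 to 1.01 for IFI6, with intervals that include 1, and IFI44 changed side between 0.963 with library totals and 1.03 with TMM scaling. The median log2 ratio of the 9 genes was -0.15, against -0.09 for all genes tested.

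The other genes of the interferon pathway were described from lists that leave out the 9. Ligands were scarce. IFNB1 and IFNL1, the interferons most often made by epithelium, had 1 and 7 counts in the library labelled wtOCLN+LPS and 0 in each of the others, where 3 counts would be worth 0.172 to 0.216 CPM. IFNL2 had 2 counts in that library and 0 elsewhere. IFNA1 had 0 counts in siOCLN+LPS and in the one labelled wtOCLN+LPS, against 3 in LPS and 5 in control. IFNE, an epithelial interferon of the reproductive tract, was the 1 ligand of 9 above 1 CPM, at 5.38 CPM in siOCLN+LPS, 3.14 CPM in the library labelled wtOCLN+LPS, 7.57 CPM in LPS and 7.99 CPM in control. All 9 receptors and receptor kinases were tested, and none lay 2-fold apart from LPS in either transfected library. Most genes stayed within 2-fold of LPS too. For siOCLN+LPS, 3.32% of all genes tested were higher and 3.92% lower. With the wtOCLN+LPS label these shares were 3.32% and 3.69%. The lack of calls thus does not set these 9 genes apart.

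Among the interferon regulatory factors, values are given for IRF1, IRF9 and IRF7. IRF1 was at 1036 CPM in siOCLN+LPS, 1009 CPM in the library labelled wtOCLN+LPS, 463 CPM in LPS and 89.1 CPM in control, and its ratio of LPS over control was 5.20 (4.91 to 5.51). IRF9, which gives ISGF3 its DNA contact, was at 47.3 CPM in siOCLN+LPS, 80.5 CPM in the library labelled wtOCLN+LPS, 24.3 CPM in LPS and 29.3 CPM in control. IRF7, which amplifies the response, was at 38.2 CPM in siOCLN+LPS, 86.7 CPM in the library labelled wtOCLN+LPS, 26.6 CPM in LPS and 30.5 CPM in control. IRF9 was at 0.587 and IRF7 at 0.440 in siOCLN+LPS relative to the library labelled wtOCLN+LPS.

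Of 55 other interferon-stimulated genes, 26 of 54 tested passed 2-fold over LPS in siOCLN+LPS (median log2 ratio 0.89), as did 41 of 55 in the library labelled wtOCLN+LPS (median 1.64), with none lower in either. Over all genes tested, 3.32% were higher in each of these comparisons, and 3.92% and 3.69% were lower. In siOCLN+LPS against the library labelled wtOCLN+LPS, 17 of 55 were at least 2-fold lower and none higher, where 0.290% of all genes tested were lower and 0.0763% higher. The median log2 ratio of the list was -0.74, against -1.02 for the 9 genes and 0.02 for all genes tested. The antiviral GTPases MX1 and MX2 and the synthetase OAS2 were at 0.296, 0.165 and 0.283 there. The 1 member above 0 was the chemokine CXCL11, at 1.20 (0.683 to 2.13) on 30 and 25 counts. In LPS against control all 49 tested genes of this list lay within 2-fold, as did most genes: 1.60% of all genes tested passed 2-fold upward and 0.207% downward. Not all were flat, since TRIM25 at 1.99-fold (1.88 to 2.10) and DDX58 at 1.95-fold (1.69 to 2.24) lay just under the threshold. Of the 49, 17 were above a log2 ratio of 0 and 32 below, with a median of -0.05. Among 5 tested feedback genes, which damp the response, 1 passed 2-fold over LPS in siOCLN+LPS (ISG15), while ISG15 and USP18 did so in the library labelled wtOCLN+LPS. USP18, an ISG15 protease that blocks the interferon receptor, was at 15.4 CPM in siOCLN+LPS, 39.4 CPM in the library labelled wtOCLN+LPS, 9.16 CPM in LPS and 10.4 CPM in control.

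**Figure D5:**
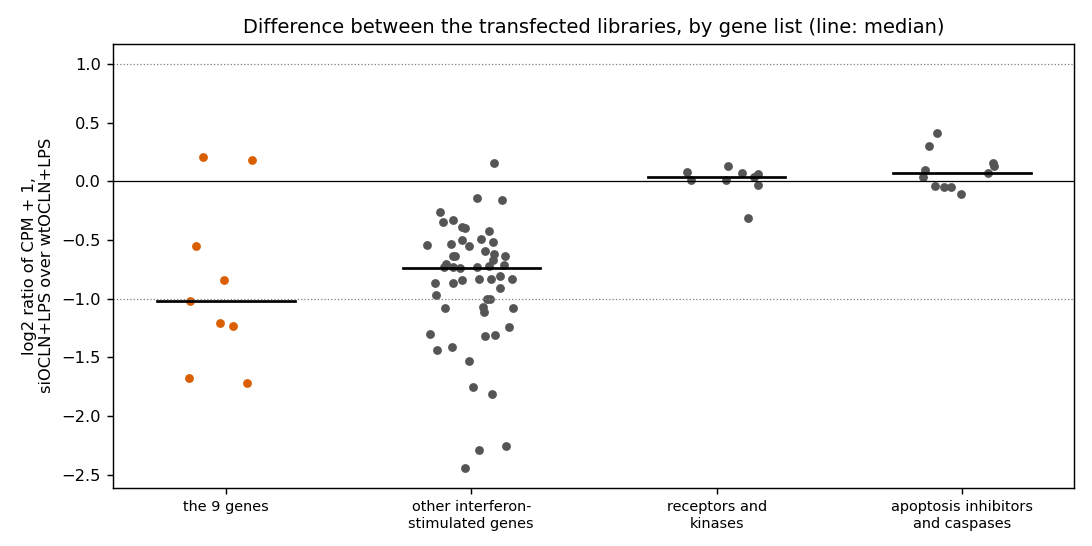
log2 ratio of CPM + 1 in siOCLN+LPS over the library labelled wtOCLN+LPS for the 9 genes and 3 lists of pathway genes, with 1 point per gene, a line at each median and dotted lines at 2-fold. The median lies at -1.02 for the 9 genes, -0.74 for the other interferon-stimulated genes and 0.04 for receptors and kinases.

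The partners of single members behaved in different ways. NMI, which binds IFI35, was at 23.4 CPM in siOCLN+LPS, 33.3 CPM in the library labelled wtOCLN+LPS, 21.1 CPM in LPS and 21.3 CPM in control, a flatter profile than that of IFI35. XIAP, the target of XAF1, was at 53.6 CPM in siOCLN+LPS, with 51.1 CPM in the library labelled wtOCLN+LPS, against 84.6 CPM in LPS and 81.7 CPM in control. It was thus at 0.633 of LPS in siOCLN+LPS (0.580 to 0.691), on the opposite side to XAF1. None of 11 apoptosis inhibitors, caspases and related genes was called against LPS in either transfected library. Few of all genes tested were called there: 3.32% higher and 3.92% lower for siOCLN+LPS, 3.32% and 3.69% with the wtOCLN+LPS label. A list of 11 without calls is therefore not unusual. The inhibitor NAIP came nearest, at 14.2 CPM in siOCLN+LPS, 10.4 CPM in the library labelled wtOCLN+LPS, 21.8 CPM in LPS and 25.8 CPM in control. With the wtOCLN+LPS label, its CPM ratio to LPS was 0.478 (0.395 to 0.576). That ratio is past 2-fold, but NAIP stayed uncalled on the log2(CPM + 1) scale. BIRC3, an apoptosis inhibitor and NF-kB target, was 13.2-fold higher in LPS than in control (12.4 to 14.0).

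IFI16 was the only gene of its PYHIN family with counts: AIM2, MNDA and PYHIN1 were at 0 in all 4 libraries. Of 5 other DNA-sensing genes tested, 1 passed 2-fold over LPS in each transfected library, where 3.32% of all genes tested did so in each. The 1 gene was the nucleotide hydrolase SAMHD1. It was at 179 CPM in siOCLN+LPS, 272 CPM in the library labelled wtOCLN+LPS, 47.4 CPM in LPS and 54.9 CPM in control. The sensor cGAS (listed as MB21D1) ran from 23.5 to 26.3 CPM and its adaptor STING (TMEM173) from 35.7 to 47.9 CPM across the libraries.

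Likeness of profile was measured as the root mean square difference in log2(CPM + 1) ratios to control over the 3 other libraries, among 11408 genes at 5 CPM or more in some library. The members themselves were left out of the genes compared, so likeness between members was not measured. Among the genes compared, IFI27 had none within 0.5 of its profile. Its nearest outside the members were ADGRF5, an adhesion receptor, at 1.06, OAS2 at 1.07 and MX1 at 1.16. ADGRF5 was at 31.5 CPM in siOCLN+LPS, 28.3 CPM in the library labelled wtOCLN+LPS, 0.793 CPM in LPS and 0.189 CPM in control, so unlike IFI27 it was no higher with the wtOCLN+LPS label than in siOCLN+LPS. The nearest to IFI6 were OAS2 at 0.26, MX1 at 0.29 and ISG15 at 0.46.

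For IFI44 the nearest were IFIT1 at 0.15, IFITM1 at 0.20 and the basal cell factor TP63 at 0.29. With the other members left out, IFI44L lay nearest to IFIT1 (0.22), the cardiac ankyrin repeat gene ANKRD1 (0.37) and ISG15 (0.39). XAF1, also with the other members left out, lay nearest to IFIT1 (0.37), OAS1 (0.40) and RSAD2 (0.50). IFI35 lay nearest to BST2 (0.07), RASGRF1 (0.11) and TRIM22 (0.14), and IFI16 to DHX58 (0.06), TRIM14 (0.06) and MGLL (0.07). IFI27L1 had 8060 of the 11408 genes within 0.5, led by POMT1, D2HGDH and KBTBD4 at 0.01, and IFI27L2 had 3765, led by SMPDL3A at 0.02 and FOCAD and PTGIS at 0.03. With 4 libraries, such likeness describes these libraries alone.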

How the data were processed

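Each of the 4 libraries came with a table of raw counts per gene symbol, as deposited by the authors. The submitters' processing notes list TopHat, Cufflinks and hg19. How reads were counted and with which strand setting is not given in the sources used here, so reads shared between paralogues such as IFI44 and IFI44L may be split in an unknown way. In GENCODE 29, 0 of the 21850 file symbols it places overlap a member.

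Counts were scaled to CPM by library total. Ratios used log2(CPM + 1) for genes reaching 1 CPM in at least 1 of the libraries, with a 2-fold threshold. With 1 library per group no test or p-value was possible, and libraries are compared, not conditions. Intervals are 95% Poisson (levels) or Clopper-Pearson (ratios) and cover counting error only. Members and lists were chosen with earlier results of these data known. Named genes are the members, OCLN, the 3 nearest profiles of each member, up to 4 genes per list with the largest log2 ratio against LPS in a transfected library, and genomic neighbours; BIRC3, NMI, CXCL11, MB21D1, EPCAM, KRT14, the ligands under 1 CPM and the genes at 0 were named outside this rule, after their values were seen. A gene that this rule names, and the counts of its list, are not reported here. The steps were tested on simulated data. Other pseudocounts, filters, median ratio and TMM scaling (edgeR 4.0.16 in R 4.3.3) were tried, and the control library in place of LPS was added after seeing the data. Python 3.11.15, NumPy 2.4.6, SciPy 1.17.1 and pandas 2.3.3 were used.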

Additional observations from a re-analysis of the deposited data

How the results depend on the processing

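Against LPS, 6 members passed 2-fold upward in siOCLN+LPS, as did 6 in the library labelled wtOCLN+LPS, under all alternatives tried, including the control library in place of LPS. In siOCLN+LPS against the library labelled wtOCLN+LPS, 5 members were lower under all but a pseudocount of 5, which gave 4. No member past 2-fold changed side. IFI44 in LPS against control went to a log2 ratio of 0.04 under both scalings, against -0.05. Leaving out a replicate was not possible with 1 library a group. Counts over all genes depended on the settings. With a pseudocount of 5 they were 135 higher and 1 lower in LPS against control, 226 and 189 in siOCLN+LPS against LPS, 254 higher with 173 lower in the library labelled wtOCLN+LPS against LPS, and 1 and 21 in siOCLN+LPS against the library labelled wtOCLN+LPS. A pseudocount of 0.1 put 188, 932 and 925 genes lower in the first 3 of these, and 79 were higher and 82 lower in the last. A filter at CPM 5 gave 13 lower in LPS against control, plus 4 higher in siOCLN+LPS against the library labelled wtOCLN+LPS. A larger pseudocount shrinks the ratios of low genes by construction. TMM scaling moved the median log2 ratio of all genes from -0.13 to 0.01 in siOCLN+LPS against LPS, as from -0.15 to 0.01 in the library labelled wtOCLN+LPS against LPS. The 44 counts of IFI27 in LPS limit its folds, whose intervals are the widest among the members past 2-fold. Its top rank also held against LPS alone. With control in place of LPS, which takes in LPS treatment as well, IFI27 ranked 16 from the highest log2 ratio in siOCLN+LPS (24.3-fold, 19.4 to 30.9). In the library labelled wtOCLN+LPS it then ranked 6 (78.3-fold, 62.7 to 99.0). No paired analysis was possible because each group has 1 library.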

Other observations

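The genes next to the members in the gene order of GENCODE 29, among symbols in the files, give the local context. DDX24, an RNA helicase gene beside IFI27L1, was at 228 CPM in siOCLN+LPS, 246 CPM in the library labelled wtOCLN+LPS, 250.4 CPM in LPS and 236 CPM in control. PPP4R4, on the other side of IFI27L2, was at 2.63 CPM in siOCLN+LPS, 3.31 CPM in the library labelled wtOCLN+LPS, 3.68 CPM in LPS and 0.441 CPM in control, so that it was low in control alone. PTGFR, a prostaglandin receptor gene beside IFI44L, was lower where IFI44L was higher, at 0.341 of LPS in siOCLN+LPS (0.244 to 0.471), with 0.371 in the library labelled wtOCLN+LPS (0.269 to 0.509). VAT1, beside IFI35, was at 0.573 of LPS in siOCLN+LPS, with 0.591 in the library labelled wtOCLN+LPS. FBXO39, the next gene after XAF1 on the same strand, had 12 counts in siOCLN+LPS, 45 in the library labelled wtOCLN+LPS, 3 in LPS and 0 in control.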
